A study of Rattus norvegicus with 6 samples.

Results

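Long intergenic noncoding RNAs (lincRNAs) that were expressed in injured rat spinal cord were compared between cords with and without electrical stimulation. The members are the genes that the deposited gene table types as lincRNA and whose mean over the 6 libraries was at least 1 FPKM. FPKM is the number of sequenced fragments of a gene, scaled to its length and to the size of the library. They are 156 of 3090 lincRNA genes and of 32623 genes in all. They were thus chosen by their mean FPKM over both groups, not by the difference between groups, and their levels are given as a description.

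The tissue was spinal cord of female Wistar rats, aged 8 weeks per the labels, from a model of spinal cord injury. The ES group (3 libraries) had the injury and electrical stimulation, and the SCI group (3 libraries) had the injury alone. The labels give neither the injury method, the time after injury, nor the stimulation settings, and there was no uninjured cord. They do not say that each library came from a separate rat, so the p-values below measure the spread between libraries alone, which may be technical.

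A lincRNA is transcribed from its own gene, is often spliced and polyadenylated, and is not known to encode a protein. Many lincRNAs stay in the nucleus, where some act on chromatin, on nuclear bodies or on the gene next to them, and most are present at lower levels than messenger RNAs. In the nervous system many are restricted to single cell types. Only a few have a known role, so most of the members can be described by position and level alone.

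The depth was estimated at 13900000, 15200000 and 16200000 read pairs in ES libraries and at 16300000, 16500000 and 18600000 in SCI libraries. Between 18878 and 19239 genes per library were above 0. Correlations of log2(FPKM + 1) were 0.983 to 0.986 within groups and 0.962 to 0.965 across them. Marker genes of several cell types differed between the groups. Of 4 astrocyte markers all were lower in ES (summed level 2050 to 2160 FPKM in ES and 3220 to 3260 in SCI), as were 3 of 3 Schwann cell markers (651 to 656 against 1280 to 1300) and 3 of 3 fibroblast and meningeal markers (532 to 542 against 825 to 878). Higher in ES were 4 of 5 neuronal markers (263 to 273 against 206 to 207 FPKM), 4 of 4 oligodendrocyte markers (11600 in each ES library against 7270 to 7340), 2 of 4 microglia and macrophage markers (873 to 926 against 823 to 843) and 3 of 3 red cell markers (2210 to 2370 against 380 to 402). The most abundant microglia and macrophage marker, Cd68, was not called and lay lower in every ES library (604, 601 and 557 FPKM, against 622, 616 and 638 in SCI). T cell markers (1 of 2 higher, 1.84 to 2.61 FPKM against 0.979 to 2.02) and skeletal muscle markers (1 tested, not called, 1.67 to 4.07 against 0.842 to 1.23) were low. Of 2 endothelial markers 1 was found in the table, Cldn5, and it was listed at 0 in all 6 libraries. The part of these markers in the lincRNA results was not tested, and in bulk tissue fewer cells of a type and less RNA per cell cannot be told apart.

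The members were mostly low and mostly unnamed. Their median level was 2.42 FPKM. 62 lay under 2 FPKM, 35 at 5 FPKM or more and 12 at 20 FPKM or more. A mean of at least 1 FPKM was reached in both groups by 132 members, only in ES by 9 and only in SCI by 15. The median length was 1015 bases (211 to 5614), the median number of exons was 2, 20 members had 1 exon and 127 had 1 annotated transcript. They lay on 21 chromosomes, with 19 on chromosome 1, 15 on X and 12 on chromosome 3. A clone name was the symbol of 120 members, of which 115 had no description. Of the 41 members with a description, 14 read uncharacterized and 19 named a protein that the locus resembles.

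Some members were less clearly intergenic and noncoding by other measures. By the coordinates of the transcript table, 8 members overlapped a protein-coding gene on the same strand and 8 on the opposite strand only. RefSeq (assembly GRCr8) had the symbols of 10 members and listed 8 as long noncoding RNA and 2, Rfwd3 and Ly6l, as protein-coding. At the lower edge of the rule the members AABR07060519, AC099453 and AABR07044408 had means of 1.04, 1.03 and 1.03 FPKM. The lincRNA genes just under it, AABR07012100, AABR07034745 and AABR07011682, had means of 0.981, 0.975 and 0.972 FPKM. None of the 3 just above was called, and of the 3 just below only AABR07034745 was (0.621, 0.348 and 0.137 FPKM in ES, against 1.31, 1.61 and 1.82 FPKM in SCI). Its mean reached the 0.5 FPKM needed for a test through SCI alone, so its call lends no support.

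Each gene was tested with limma on log2(FPKM + 1) in a fit across all 15750 genes with a mean of at least 0.5 FPKM, and called where the Benjamini-Hochberg adjusted p over all of them was under 0.05. All 156 members were above that filter by the rule. Of them 55 were called, which is 35.3%, against a percent called of 45.0 over all genes tested. In ES 17 members were higher (10.9%, against 17.4% of all genes) and 38 were lower (24.4%, against 27.6%). The median log2 fold change, ES minus SCI, was -0.127 over the members and -0.057 over all genes tested. Every ES library lay above every SCI library for 22 members (14.1%, against 21.9% of all genes tested) and below for 49 (31.4%, against 34.6%), and the 55 called members were all among these. Of the 55, 11 (2 higher and 9 lower) reached 1 FPKM in 1 group only. These 11 met the level rule through the group where they were high, so the rule itself favours a difference, and those named below are given by their values as a description, without a p as support. Among the 132 members of at least 1 FPKM in each group 15 were higher (11.4%, against 18.6% of the 13920 genes at that level in each group) and 29 were lower (22.0%, against 28.2%).

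The balance between the directions depended on the scaling. Summed over all genes, FPKM came to 571823 to 572472 in ES libraries and 542735 to 544854 in SCI libraries. With quantile normalization 28 members were called higher (17.9%, against 21.7% of all genes) and 25 lower (16.03%, against 20.7%). With median centring 25 were higher (16.03%, against 25.5%) and 26 lower (16.7%, against 18.9%). The median log2 fold change of all genes was 0.012 under quantile normalization and 0.035 under median centring. With every library scaled to the same total FPKM it was -0.12, and 16 members were higher (10.3%, against 13.1% of all genes) and 45 lower (28.8%, against 35.5%). None of the 55 called members changed sign under the 15 other scalings, filters, models and left-out libraries, and 36 of the 55 kept the call in all of these that tested them.

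**Figure D1:**
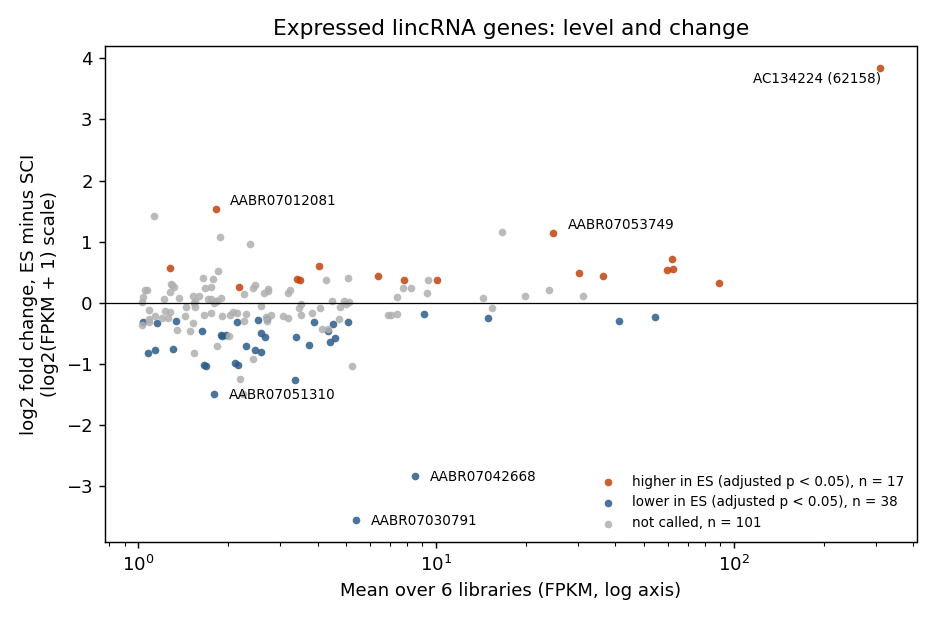
Each point is 1 of the 156 expressed lincRNA genes, by its mean over 6 libraries (FPKM, log axis) and its log2 fold change, ES minus SCI, on the log2(FPKM + 1) scale. Orange points were called higher in ES (17), blue points lower (38) and grey points not called (101); ENSRNOG00000062158, named AC134224, stands at 308 FPKM and 3.83, and AABR07042668 and AABR07030791 lie lowest.

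Calls were unevenly spread over the levels. Of the 12 members at 20 FPKM or more, 8 were higher in ES and 2 lower, a share called of 83.3% beside 60.4% of all genes at that level. The 3 AC134224 genes described below are among the 8 and lie side by side. At 1 to 2 FPKM 24.2% of 62 members were called beside 32.4% of all genes, at 2 to 5 FPKM 37.3% of 59 beside 40.8%, and at 5 to 20 FPKM 34.8% of 23 beside 45.3%.

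**Figure D2:**
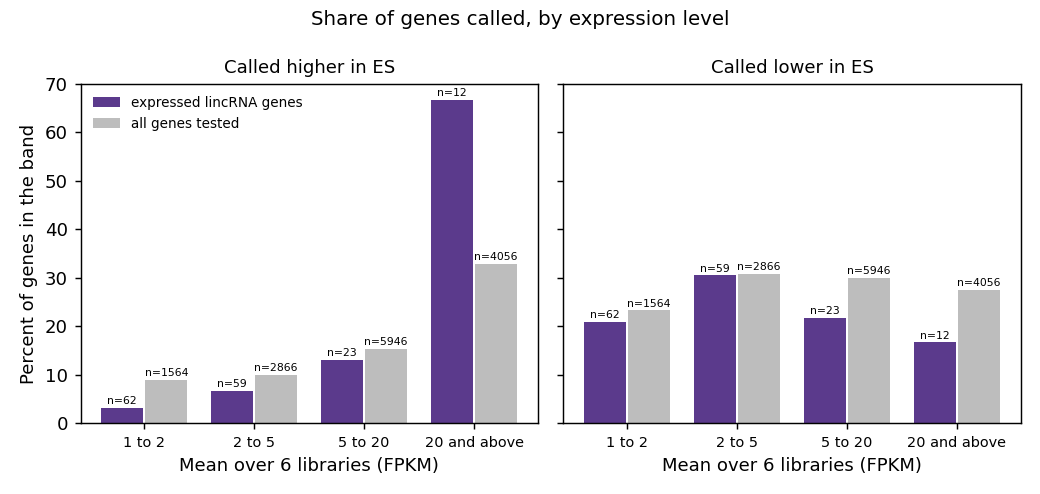
Bars give the percent of genes called higher (left) or lower (right) in ES, by band of mean level over 6 libraries (FPKM), for expressed lincRNA genes (purple) and all genes tested (grey), with the number of genes above each bar. In the band at 20 FPKM and above 66.7% of 12 lincRNA genes were called higher, against 32.8% of all genes.

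The largest rise was at 1 gene of a group of 3 on the minus strand of chromosome 1, all named AC134224 after a clone, near Frmd8. As background, in mouse and human the abundant nuclear lincRNAs Malat1 and Neat1 lie near this gene. Malat1 is a component of nuclear speckles and Neat1 the scaffold of paraspeckles. The tables give neither name to the rat genes, which are called here by their IDs. They span 6966 bases and are separated by 1282 and 1187 bases.

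ENSRNOG00000062158 (chr1:221158098-221158792 in the tables, whose build is not given, 1 exon, 695 bases) had 565, 605 and 561 FPKM in ES libraries, against 41.5, 41.8 and 35.6 FPKM in SCI libraries. All 3 ES libraries stood far above all SCI libraries, and the ratio of means was 14.6 (log2 fold change 3.83, SE 0.07, limma adjusted p = 4.63e-07). It had the highest mean level of the 156 members, and its call held in all 15 alternatives, as did those of the other two genes.

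The other two changed less. ENSRNOG00000062127 (chr1:221154561-221156910, 1 exon) had 76.1, 80.6 and 74.9 FPKM in ES, against 46.7, 48.5 and 44.3 FPKM in SCI (log2 fold change 0.72, SE 0.04, limma adjusted p = 4.71e-05). ENSRNOG00000062155 (chr1:221151827-221153278, 2 exons) had 34.1, 38.3 and 33.6 FPKM in ES, against 25.7, 27.2 and 22.0 FPKM in SCI (log2 fold change 0.49, SE 0.09, limma adjusted p = 0.00446). For both genes the groups did not overlap.

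Within the group of 3 the balance differed. ENSRNOG00000062158 held 83.6% to 83.8% of their summed FPKM in ES libraries, against 34.9% to 36.5% in SCI libraries. The ratio of ENSRNOG00000062155 to ENSRNOG00000062127 was 0.448 to 0.475 in ES, against 0.496 to 0.56 in SCI. Frmd8 averaged 36.1 ± 1.23 FPKM in ES and 33.8 ± 0.954 FPKM in SCI (SD, n = 3 each) and was not called (limma adjusted p = 0.0908).

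**Figure D3:**
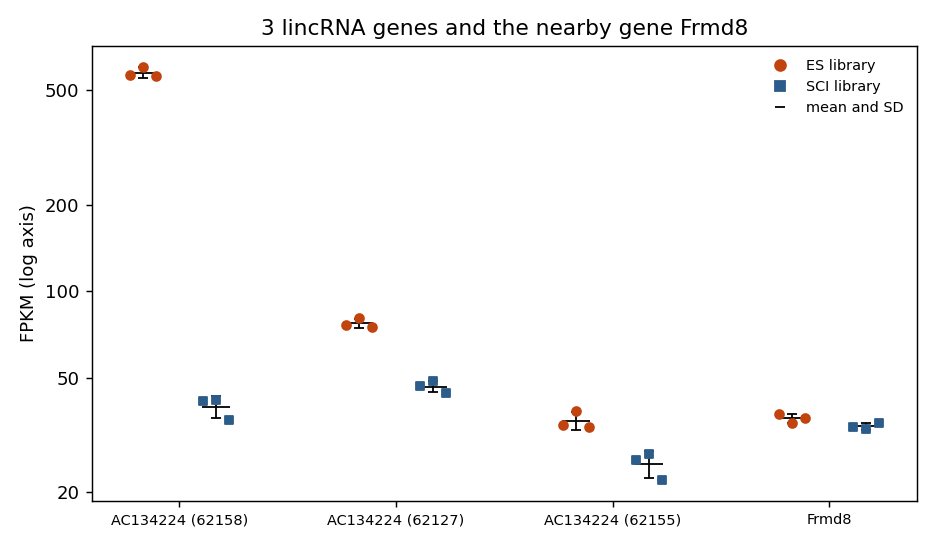
Points are FPKM (log axis) in each ES (circles, left) and SCI (squares, right) library for the 3 AC134224 genes, marked with the last digits of their IDs, and for the nearby gene Frmd8, with the mean and SD. The first lincRNA gene averaged 577 FPKM in ES and 39.6 FPKM in SCI, while Frmd8 was not called.

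This single gene set the share of RNA that the members took together. They made up 0.278% to 0.285% of all FPKM in ES libraries, against 0.183% to 0.189% in SCI libraries. Without ENSRNOG00000062158 the shares were 0.18% to 0.184% in ES and 0.176% to 0.183% in SCI, and the ranges overlapped.

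Among the other abundant members, AABR07053749 (chr3:124004419-124005426) rose most. It had 35.1, 35.7 and 32.3 FPKM in ES, against 15.1, 16.6 and 13.5 FPKM in SCI, a ratio of 2.28 with no overlap (log2 fold change 1.14, SE 0.08, limma adjusted p = 6.57e-05). AABR07002969 (chr1:90820595-90848674) averaged 74.3 ± 2.57 FPKM in ES and 50.2 ± 1.83 FPKM in SCI (SD, n = 3 each), a log2 fold change of 0.56 (limma adjusted p = 8.60e-05). LOC102549714, described only as uncharacterized, averaged 99.5 ± 9.66 FPKM in ES and 79.3 ± 3.54 FPKM in SCI, a log2 fold change of 0.32 (limma adjusted p = 0.0110).

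At lower levels AABR07017145 had 4.99, 4.91 and 5.36 FPKM in ES, against 2.66, 3.37 and 2.98 FPKM in SCI (log2 fold change 0.61, limma adjusted p = 0.00140). Its ES libraries lay above all SCI libraries, as did those of the other 16 members called higher.

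2 abundant members were lower in ES. AABR07039356 on chromosome X had 50.7, 51.3 and 47.7 FPKM in ES, against 57.5, 58.4 and 59.7 FPKM in SCI (log2 fold change -0.23, limma adjusted p = 0.00270). AABR07072236 on chromosome 11 had 34.5, 40.6 and 35.1 FPKM in ES, against 44.8, 46.1 and 45.4 FPKM in SCI (log2 fold change -0.30, limma adjusted p = 0.00828). For both the groups were close but did not overlap. Of the 10 most abundant members AABR07035955 was the 1 not called, and it averaged 32.5 ± 3.31 FPKM in ES and 30.0 ± 0.712 FPKM in SCI (SD, n = 3 each; limma adjusted p = 0.251).

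Tug1, a widely expressed lincRNA of nucleus and cytoplasm, is the 1 member on a list of 111 named long noncoding RNAs, of which 10 were in the gene table. It had 11.8, 16.8 and 16.5 FPKM in ES, against 15.4, 16.1 and 15.8 FPKM in SCI. ES replicate 1 lay below the rest and the groups overlapped (log2 fold change -0.08, SE 0.13, limma adjusted p = 0.637). The sign turned without ES replicate 1 (0.073) and with median centring (0.012), and neither value was called.

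The largest falls were at AABR07030791 and AABR07042668. AABR07030791 (chr10:104817972-104820399, minus strand, 2 exons) was listed at 0 in all 3 ES libraries, against 13.0, 8.83 and 10.6 FPKM in SCI libraries, and no fold is given. It is a member through the SCI libraries alone, and a gene listed at 0 can be a failed estimate, so its call lends no support. ENSRNOG00000046121, a protein-coding gene named AABR07030793 and 27250 bases away, was likewise listed at 0 in all ES libraries, against 0.642, 0.838 and 0.782 FPKM in SCI, and was too low to be tested.

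AABR07042668 (chr19:2391053-2392983, 2 exons) had 1.26, 1.14 and 1.67 FPKM in ES, against 17.2, 14.1 and 15.8 FPKM in SCI. Its SCI mean was 11.6 times its ES mean, and the groups lay far apart (log2 fold change -2.83, SE 0.11, limma adjusted p = 7.07e-06). It ends 76 bases before Cdh11 on the same strand. Cdh11, a cadherin of mesenchymal cells, had 20.5, 21.5 and 22.2 FPKM in ES, against 63.4, 67.9 and 65.7 FPKM in SCI (log2 fold change -1.57, SE 0.04, limma adjusted p = 2.21e-06). Both genes were lower in every ES library, as were the summed fibroblast and meningeal markers, whose part in this was not tested.

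Several smaller falls left ES levels near 1 FPKM. LOC108348049 had 1.07, 1.19 and 0.981 FPKM in ES, against 2.87, 3.17 and 3.65 FPKM in SCI (log2 fold change -1.02, limma adjusted p = 0.000280). AABR07064878, with 11 exons, had 0.823, 1.34 and 1.11 FPKM in ES, against 3.16, 2.76 and 3.47 FPKM in SCI (log2 fold change -0.99, limma adjusted p = 0.000872). AABR07051952 averaged 0.499 ± 0.177 FPKM in ES and 1.66 ± 0.571 FPKM in SCI (SD, n = 3 each), it is a member through SCI alone, and its median over the libraries was 4 estimated read pairs.

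3 of the largest falls were unsteady between ES libraries. AABR07051310 had 0.398, 0 and 1.19 FPKM in ES, against 3.12, 3.27 and 2.80 FPKM in SCI, and its call was lost with a pseudocount of 0.01 (limma adjusted p = 0.0855). LOC102554500 had 3.19, 0.459 and 1.58 FPKM in ES, against 4.89, 4.77 and 5.33 FPKM in SCI (limma adjusted p = 0.0263). Its call was lost in 5 of 15 alternatives, without ES replicate 3 or any 1 SCI library among them (adjusted p up to 0.0722). ENSRNOG00000053300, 1 of the genes named AABR07058985, had 1.03, 1.497 and 0 FPKM in ES, against 2.68, 2.22 and 2.56 FPKM in SCI, and its call was lost in 11 of 14 alternatives (adjusted p up to 0.192), without ES replicate 1 or any 1 SCI library among them. AABR07051310 and ENSRNOG00000053300 are members through SCI alone.

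**Figure D4:**
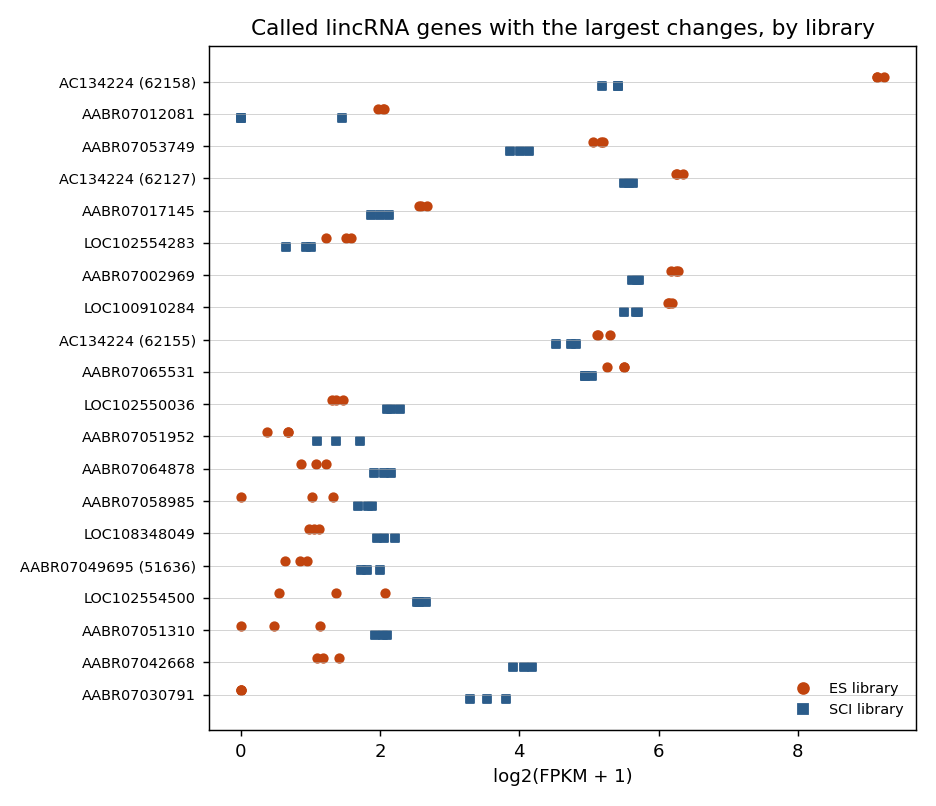
Points are log2(FPKM + 1) in each ES (orange circles) and SCI (blue squares) library for the 10 called members with the largest change in each direction, sorted by log2 fold change from the highest at the top. The 3 ES libraries of ENSRNOG00000062158 lie apart from all others on the right, and those of AABR07030791 lie together at 0.

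In at least 1 library 19 members (12.2%) were listed at 0, against 123 (0.862%) of the 14276 other genes of at least 1 FPKM. By level, the shares were 17.7% of 62 members against 3.06% of other genes at 1 to 2 FPKM, 8.47% of 59 against 1.28% at 2 to 5 FPKM, and 13.0% of 23 against 0.54% at 5 to 20 FPKM. These differences were not tested. Of these 19, 1 was called higher and 3 lower, beside 17.4% higher and 27.6% lower over all genes tested. No share was taken over other genes with a 0. The called ones, AABR07012081, AABR07030791, AABR07051310 and ENSRNOG00000053300, reached 1 FPKM in 1 group only, so the level rule favours their difference. The most abundant of the 19 was AABR07044414 (mean 16.7 FPKM), with 17.01, 16.8 and 19.4 FPKM in ES, against 0, 22.9 and 24.0 FPKM in SCI. SCI replicate 1 alone was at 0 and the gene was not called. A 0 at such a level can be a failed estimate. Some had a 0 in both groups, such as AABR07028995, with 4.15, 0 and 5.18 FPKM in ES, against 5.98, 0 and 5.80 FPKM in SCI. AABR07034750 had a 0 in ES replicate 2 alone, with 5.96, 0 and 5.92 FPKM in ES, against 6.30, 6.73 and 6.34 FPKM in SCI, and neither was called. Without the 19 members, a count added after seeing the data, 137 remained. Of these 16 were called higher and 35 lower, and the matching share over all genes was not taken.

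The depth behind the members was low. The median over the members was 52 estimated read pairs in a library, and 29 members had under 20. When known changes were simulated in the fit of 15750 genes, the test found 83.6% of the 67 that were 1.5-fold, 95.5% of the 67 that were 2-fold and 100% of the 66 that were 4-fold. That share is over genes of all levels tested and not over lincRNAs.

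19 members were described as like a known protein, and 7 of these were called (36.8%, beside 35.3% of all members and 45.0% of all genes tested). LOC100910284, described as like brevican (Bcan, a proteoglycan of the matrix around neurons), had 72.5, 69.7 and 69.3 FPKM in ES, against 50.1, 44.2 and 51.2 FPKM in SCI (log2 fold change 0.53, limma adjusted p = 0.000507). Bcan, elsewhere on chromosome 2, was higher as well (148 ± 2.34 FPKM in ES and 112 ± 5.24 FPKM in SCI; log2 fold change 0.40). The files do not say how fragments that match both copies were counted.

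A further member, AABR07012081, occupies the same span on the opposite strand of LOC100910284 (chr2:184915247-184917462). It had 2.92, 3.12 and 3.15 FPKM in ES, against 0, 0 and 1.75 FPKM in SCI. SCI replicate 3 alone was above 0 among the SCI libraries. The gene is a member through ES alone. It was called higher, and the call was lost in 5 of 14 alternatives, without ES replicate 2 or 3 or SCI replicate 1 or 2 among them (adjusted p up to 0.0551). The libraries kept the strand, but no source used here says whether counting used it, so reads of this pair cannot be told apart.

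For the other 6 called members of this kind, some named here after their values were seen, the protein-coding gene of the description was called in the same direction in 3 cases. Fat4, a protocadherin, was lower (0.546 ± 0.0486 FPKM in ES and 2.02 ± 0.190 FPKM in SCI), as was LOC108348049. Lamc3, a laminin chain, was lower (log2 fold change -0.72), as was LOC102554659 (-0.53). Adamts13, the protease of von Willebrand factor, was higher (log2 fold change 1.12), as was LOC102554283 (0.57), whose call was lost without ES replicate 1 (adjusted p = 0.0546) or ES replicate 2 (0.0535). LOC102554283 is a member through ES alone, so the level rule favours its rise. Ralgds, an exchange factor for Ral proteins, was higher (0.35), whereas LOC102554500 was lower (-1.26). For LOC102549506 (log2 fold change -0.52) and LOC100910915 (0.38) the counterparts Klhl3 (-0.32) and Nmral1 (0.03) were not called.

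The neighbours of the members were taken as the nearest protein-coding gene on each side within 100 kb and any that overlapped. 134 members had at least 1, which gave 209 genes, of which 161 were tested. Of these 25 were higher in ES (15.5%) and 45 lower (28.0%), against 18.2% and 28.5% of all protein-coding genes tested. In 28 of 227 pairs both genes were called, 14 both lower, 2 both higher and 12 in opposite directions. The pairs include neighbours that were not tested, and no share over other pairs of genes was taken. Lower calls were the more frequent among members and neighbours alike. Within 5 kb or overlapping, 8 of 85 pairs had both called, 6 in the same direction and 2 in opposite directions, and at 5 to 100 kb 20 of 142 had both called, 10 in each.

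By position the counts stood beside shares of 17.4% higher and 27.6% lower over all genes tested, and most classes held few members. Of 36 members within 5 kb in an orientation other than downstream on the same strand, 2 were higher (5.56%) and 8 lower (22.2%), and of 12 within 5 kb downstream on the same strand 1 was higher and 1 lower (8.33% each). Of 70 members at 5 to 100 kb 13 were higher (18.6%) and 20 lower (28.6%), and of 22 farther than 100 kb none was higher and 5 were lower (22.7%). The 8 that overlapped a protein-coding gene on the same strand had 1 higher and 2 lower, and the 8 on the opposite strand only had none higher and 2 lower. These counts were not tested against each other or against all genes.

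2 of the close pairs were divergent and lower together. In each the lincRNA is a member through SCI alone, so its fall is given as a description. ENSRNOG00000051636, 1 of 2 members named AABR07049695, had 0.797, 0.548 and 0.934 FPKM in ES, against 3.00, 2.32 and 2.51 FPKM in SCI (log2 fold change -1.04). Foxd2, a forkhead transcription factor, starts 438 bases away on the opposite strand. It had 0.590, 0.596 and 0.250 FPKM in ES, against 2.36, 1.94 and 1.99 FPKM in SCI (log2 fold change -1.07). The ES mean of Foxd2 was under the filter of 0.5 FPKM. It was thus tested through SCI alone, and its fall is a description as well. Both were lower in every ES library. The second member of that name, ENSRNOG00000052757 at 8047 bases from Foxd2, was lower by less (log2 fold change -0.32), and its call was lost without ES replicate 2 or 3 or SCI replicate 2 (adjusted p up to 0.0855).

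AABR07035273 and Pan3, a subunit of a poly(A)-shortening complex, lie 420 bases apart in opposite directions on chromosome 12 and were both lower, a pair chosen after its values were seen. The lincRNA, a member through SCI alone, had 0.884, 0.847 and 0.981 FPKM in ES, against 1.32, 1.43 and 1.46 FPKM in SCI. Its call was lost without ES replicate 2 (adjusted p = 0.0534). Pan3 averaged 7.43 ± 0.282 FPKM in ES and 9.87 ± 0.441 FPKM in SCI (SD, n = 3 each).

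In another divergent pair the lincRNA was lower, while its neighbour was higher by little and lost its call in most alternatives. LOC102550036 (chr1:154371892-154376984, minus strand) had 1.48, 1.76 and 1.59 FPKM in ES, against 3.88, 3.48 and 3.27 FPKM in SCI (log2 fold change -0.80, SE 0.08, limma adjusted p = 0.000447). Picalm, a clathrin assembly protein that starts 263 bases away on the plus strand, had 82.6, 79.7 and 82.1 FPKM in ES, against 77.4, 76.9 and 72.2 FPKM in SCI (log2 fold change 0.11, limma adjusted p = 0.0405). Its call was lost in 10 of 15 alternatives, with adjusted p-values up to 0.415 (0.0707 with the replicate number as a block), and without any 1 ES library or SCI replicate 2 or 3 among them (0.0517 to 0.113). LOC102550036 kept its call in all 15, with a median over the libraries of 15 estimated read pairs.

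The promoters of this pair are shown because the 2 genes start close together on opposite strands and their promoter windows overlap. The shared bases lie before both starts and hold neither. The RefSeq starts need not match those of the deposited coordinates, whose build is not given. The RefSeq windows run from 250 bases before to 50 bases after each start, in assembly GRCr8, and each is written 5′ to 3′ on its own strand with the 139 shared bases (chr1:153469047-153469185) in capitals.
LOC102550036 (chr1:153468886-153469185, minus strand): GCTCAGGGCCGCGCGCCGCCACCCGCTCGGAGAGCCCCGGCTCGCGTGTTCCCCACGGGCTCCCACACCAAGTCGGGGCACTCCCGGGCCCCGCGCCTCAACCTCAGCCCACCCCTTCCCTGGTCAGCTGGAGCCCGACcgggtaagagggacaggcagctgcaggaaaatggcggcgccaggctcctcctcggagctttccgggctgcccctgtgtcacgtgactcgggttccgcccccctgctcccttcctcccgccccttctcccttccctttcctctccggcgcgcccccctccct
Picalm (chr1:153469047-153469346, plus strand): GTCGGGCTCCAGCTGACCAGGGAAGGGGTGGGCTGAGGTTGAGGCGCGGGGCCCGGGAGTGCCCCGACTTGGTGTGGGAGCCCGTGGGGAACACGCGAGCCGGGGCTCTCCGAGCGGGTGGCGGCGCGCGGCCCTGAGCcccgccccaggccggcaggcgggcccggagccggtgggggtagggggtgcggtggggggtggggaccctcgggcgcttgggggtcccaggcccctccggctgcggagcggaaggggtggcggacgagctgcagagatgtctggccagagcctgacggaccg

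The windows are rich in CG pairs, with 27 in that of LOC102550036 and 30 in that of Picalm, against a median of 7 over 33469 rat promoters, of which 86.1% held fewer than 27. The letters GGGCGG, searched on both strands, occurred 2 times in the window of LOC102550036 and 1 time in that of Picalm, and 33.1% of all promoters hold them. Neither TATAAA (14.2% of promoters) nor CCAAT (37.5%) was found in either window. Such a match is a description of the letters only.

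AABR07038983, a 1-exon lincRNA on chromosome X, begins within the last 10 bases of the microRNA gene Mir223 on the same strand, and was looked at after its values were seen. As background, miR-223 is abundant in neutrophils and other myeloid cells. Its mature forms in RefSeq are shown because they identify the locus, with the seed (bases 2 to 8) in capitals.
rno-miR-223-5p: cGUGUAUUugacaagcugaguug
rno-miR-223-3p: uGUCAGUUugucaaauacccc

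AABR07038983 had 12.0, 11.3 and 11.1 FPKM in ES, against 8.75, 7.79 and 9.34 FPKM in SCI (log2 fold change 0.38, SE 0.07, limma adjusted p = 0.00534). The short Mir223 gene itself had 0.651, 0.0868 and 1.15 FPKM in ES, against 0.0476, 0.0280 and 0.00590 FPKM in SCI, and was too low to be tested. These libraries were made from poly(A) RNA, and mature microRNA was not measured. On the other side, 2212 bases away, Vsig4, a complement receptor of macrophages, had 3.38, 3.13 and 2.54 FPKM in ES, against 1.07, 1.23 and 0.973 FPKM in SCI (log2 fold change 0.94, limma adjusted p = 0.000617). AABR07038983 and Vsig4 had every ES library above every SCI library, as had 21.9% of all genes tested. The values of Mir223 were separated as well, but were too low to be read as a difference. Of 4 microglia and macrophage markers 2 were higher in ES, while Cd68, the most abundant, was not called and lay lower in every ES library. The part of these markers in this was not tested.

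AABR07065531 (chr6:133667975-133676907) lies 84224 bases downstream of Dlk1 on the same strand. As background, the imprinted Dlk1 locus of mouse and human holds the lincRNA Meg3, but the tables give this ID a clone name only. It had 44.6, 37.2 and 44.6 FPKM in ES, against 29.7, 32.0 and 29.9 FPKM in SCI (log2 fold change 0.45, limma adjusted p = 0.00349). Dlk1, a membrane protein with EGF-like repeats, had 2.50, 2.14 and 2.62 FPKM in ES, against 0.676, 1.05 and 1.07 FPKM in SCI (log2 fold change 0.83, limma adjusted p = 0.00157). Both were higher in every ES library.

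**Figure D5:**
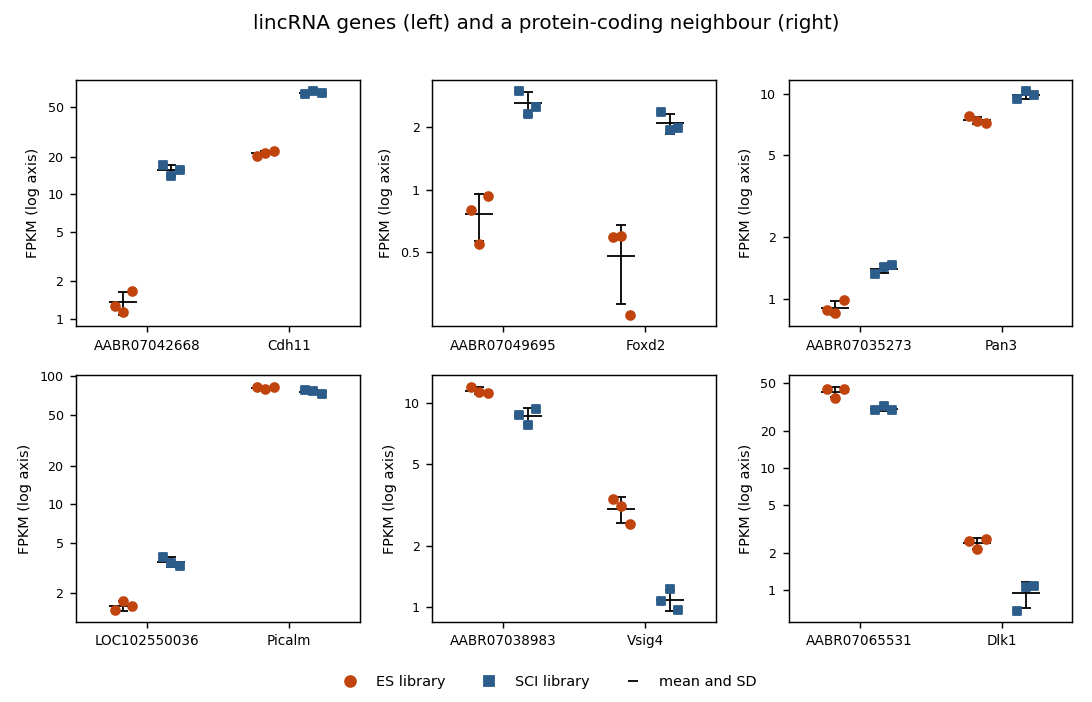
Each panel gives the FPKM (log axis) of a lincRNA gene (left) and a protein-coding neighbour (right) in each ES (circles) and SCI (squares) library, with the mean and SD; AABR07049695 is ENSRNOG00000051636. The top row holds 3 pairs with both genes lower in ES, of which AABR07049695 and AABR07035273 are members through SCI alone. In the bottom row LOC102550036 was lower beside Picalm, while the pairs of Vsig4 and Dlk1 were both higher.

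Other pairs moved in opposite directions or across larger distances. AABR07039356 was lower and LOC680227, which overlaps it on the opposite strand, was higher (6.76 ± 0.397 FPKM in ES and 5.404 ± 0.0364 FPKM in SCI; log2 fold change 0.28, limma adjusted p = 0.00796). LOC102549714 was higher and Frs2, an adaptor of FGF receptors 71808 bases away, was lower (log2 fold change -0.25), and the call of Frs2 was lost in 6 of 15 alternatives, without ES replicate 1 or 2 or SCI replicate 2 or 3 among them (adjusted p 0.0516 to 0.0621). Fam160a1, 24238 bases from LOC100910284 and AABR07012081, was lower (0.259 ± 0.0561 FPKM in ES and 0.910 ± 0.182 FPKM in SCI). It passed the filter of 0.5 FPKM through SCI alone, so its fall is given as a description. AABR07051952 and Zeb2, a zinc finger transcription factor 46922 bases away, were both lower (Zeb2 29.3 ± 0.257 FPKM in ES and 42.0 ± 1.91 FPKM in SCI; log2 fold change -0.50).

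Further pairs in which both genes were called are named here after their values were seen. AABR07044388 overlaps LOC103689965, described as like complement C4, on the same strand. It had 1.05, 1.54 and 2.08 FPKM in ES, against 3.15, 4.28 and 2.68 FPKM in SCI, and LOC103689965 averaged 44.9 ± 1.66 FPKM in ES and 92.6 ± 3.31 FPKM in SCI. Both were lower, and reads of the lincRNA and of the complement gene may not be separable. AABR07014275 was lower (log2 fold change -0.57), as was Aff1, a subunit of the transcription super elongation complex 20143 bases away (2.40 ± 0.535 FPKM in ES and 5.17 ± 0.309 FPKM in SCI). AABR07004228 was lower (-0.31), as was Nr2f2, an orphan nuclear receptor 16499 bases away (21.8 ± 0.694 FPKM in ES and 36.3 ± 2.54 FPKM in SCI), and the call of AABR07004228 was lost without ES replicate 2 or 3 or SCI replicate 1 (adjusted p up to 0.0606). AABR07004228 is a member through SCI alone.

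Lower lincRNAs also lay near genes that were higher. AC125248 had 1.97, 1.99 and 1.91 FPKM in ES, against 3.46, 3.08 and 3.55 FPKM in SCI (log2 fold change -0.56), while Cd14, a co-receptor for bacterial lipopolysaccharide 17244 bases away, was higher (33.9 ± 1.01 FPKM in ES and 24.8 ± 1.05 FPKM in SCI). AABR07037528 had 1.17, 1.20 and 1.76 FPKM in ES, against 2.43, 2.37 and 2.53 FPKM in SCI (-0.54), while Alas2, the haem synthesis enzyme of red cells 30613 bases away, was higher (5.51 ± 0.0457 FPKM in ES and 0.811 ± 0.340 FPKM in SCI). Alas2 is also 1 of the 3 red cell markers. LOC688801 was lower (-0.70) and Rasa3, a GTPase-activating protein 28766 bases away, was higher (0.33).

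Called members without a called neighbour included AC108574 and Ly6l, also named after their values were seen. AC108574, on chromosome 11, had 2.58, 2.68 and 2.63 FPKM in ES, against 4.86, 4.94 and 4.70 FPKM in SCI (log2 fold change -0.68, limma adjusted p = 0.000170). Ly6l, listed as protein-coding by RefSeq, had 0.536, 0.662 and 0.546 FPKM in ES, against 1.68, 1.85 and 1.57 FPKM in SCI. It is a member through SCI alone. Of the higher members not yet named, AABR07038849, AABR07039446, AABR07068341 and AABR07060862 had log2 fold changes of 0.44, 0.37, 0.40 and 0.27, and the call of AABR07060862 was lost in 9 alternatives, without ES replicate 1 or 2 or any 1 SCI library among them (adjusted p up to 0.143).

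Transcripts of the members were tested in the same way across the whole transcript table. Of 210 transcripts 182 were tested, and 17 were higher and 29 lower, a share called of 25.3%, against a percent called of 32.3 over all transcripts. Of 29 members with more than 1 transcript, 17 had at least 2 tested, and none of these had transcripts called in both directions. 2 transcripts were called in members that were not called as genes, chosen here after their values were seen. One was of Kantr, a lincRNA next to Kdm5c (ENSRNOT00000086786, with 1.47, 2.01 and 1.37 FPKM in ES, against 3.54, 3.78 and 3.12 FPKM in SCI, log2 fold change -0.78, limma adjusted p = 0.00616). The other was of LOC100911851, described as like intersectin-1 (ENSRNOT00000087733, with 13.9, 10.3 and 11.03 FPKM in ES, against 7.25, 6.03 and 7.85 FPKM in SCI, log2 fold change 0.66, limma adjusted p = 0.0154). A less abundant transcript of LOC100911851, ENSRNOT00000085965, lay the other way, with 0.82, 1.84 and 2.56 FPKM in ES, against 3.14, 3.46 and 3.34 FPKM in SCI, and was not called (log2 fold change -0.71, limma adjusted p = 0.0838).

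The authors' deposited table marked 16 members as significant (10.3%, against 5.12% of all genes of at least 1 FPKM), 4 of them up and 12 down. That mark was given where the authors' p-value was under 0.05 and the log2 ratio at least 1 in size. The ratio is of mean FPKM without a pseudocount, and the shares were not matched by level. Of the 16, AABR07030791, AABR07051310, ENSRNOG00000051636, Ly6l, LOC102554283 and AABR07057683 reached 1 FPKM in 1 group only. For these the level rule itself favours a difference. The fit described here called 14 of the 16, each in the authors' direction. The other two, AABR07021544 and AABR07057683, were not called: AABR07021544 had 1.58, 0.380 and 1.68 FPKM in ES, against 2.71, 2.13 and 2.54 FPKM in SCI, and AABR07057683 had 3.55, 0 and 3.21 FPKM in ES and was listed at 0 in all SCI libraries.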

How the data were processed

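Poly(A) RNA of 6 spinal cord libraries was sequenced in read pairs with a stranded kit, per the labels' protocols. Gene and transcript tables with the FPKM of each library were deposited by the authors, who wrote 0.0001 for 0, which was read as 0. The authors also deposited a fold (ratio of mean FPKM), its log2, and a p-value and q-value, from a test the sources do not name. The submitters' processing notes name HISAT and StringTie, without role or version, and build and annotation are not stated. RefSeq tables of GRCr8 gave names and sequences only.

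Read pairs were estimated by taking the most frequent value, at the low end, of transcript FPKM times length as 1 read pair. Features whose mean reached 0.5 FPKM were tested two-sided on log2(FPKM + 1) with limma 3.58.1 (R 4.3.3), with a mean-variance trend and Benjamini-Hochberg adjustment over all features tested. Fold changes on this scale understate the change of low genes. The fit was tested on simulated data with 200 changed genes. Alternatives were pseudocounts of 0.1 and 0.01, no filter or one of 2 FPKM, 3 other scalings, no trend, each library left out, an adjusted p under 0.1, a block for the replicate number, a 1.5-fold minimum, other level thresholds for members and other neighbour distances. Named members are the 10 most abundant, the 10 called ones with the largest non-overlapping change in each direction, those on the list of named lncRNAs and 3 on each side of the threshold, with their called neighbours. Members and lists were chosen with earlier results of these data known. Some neighbouring genes are not reported here.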

Additional observations from a re-analysis of the deposited data

How the results depend on the processing

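Of the counts of members, lower calls were 25 with a filter of 2 FPKM and 25 among members of 2 FPKM or more, where fewer genes were counted. Quantile normalization gave 28 higher and 25 lower, and the cause was not tested. A 1.5-fold minimum, on the log2(FPKM + 1) scale, left 1708 of 7088 genes, 5 higher and 16 lower members, 22 of 46 transcripts and 20 of 70 neighbours. With 1 library left out the counts ranged from 5907 to 6430 genes, 16 to 19 higher members, 28 to 34 lower members, 32 to 38 transcripts and 60 to 68 neighbours. The replicate number as a block gave 6317 genes, 18 higher and 37 lower members (49 shared with the calls without it) and 32 transcripts. Except for quantile normalization, no higher and lower shares over all genes are given beside these member counts. Calls over all genes were also fewer with the block, the fold minimum and a library left out, so the counts describe the members only. Same-numbered libraries did not deviate together over all genes tested (correlations -0.029 to -0.026). With 3 libraries per group a weak pairing, or one in few genes, could go unseen, so this does not settle whether the numbers pair libraries. Over the named genes, 480 values kept direction and side of the threshold, 40 lost the call and 8 reversed, all 8 of uncalled genes. Tug1 reversed with median centring (0.012) and with a library left out (-0.163 to 0.073). AC099453, at 0.02, reversed with pseudocounts of 0.1 (-0.012) and 0.01 (-0.026), with equal totals (-0.014) and with a library left out (-0.23 to 0.24). 29 members rest on under 20 estimated read pairs, and recovery at that depth was not simulated.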
